A study of Mus musculus with 5 samples.

Results

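The genes described here encode extracellular proteases, the receptor of one of them, a protease inhibitor and CCN proteins, all of them secreted or held at the cell surface. They are the 9 genes whose symbols in the count files are Plat, Plau, Plaur, Timp1, Mmp3, Mmp9, Adamts1, Ccn1 and Ccn2, out of 55385 genes in those files. The data are total RNA sequencing of hippocampi from male C57/bl6 mice aged 3 months. One library came from the hippocampus of a control mouse. The other 4 libraries came from hippocampi taken after seizures evoked by an intraperitoneal injection of kainic acid at 20 mg/kg, a glutamate receptor agonist. They comprised 1 library at 1 h after seizure onset, 2 libraries at 4 h (replicate 1 and replicate 2) and 1 library at 8 h. The labels do not say whether the 4 h libraries came from separate animals, so their spread may be technical. For the control, no vehicle injection or matched time is stated, so the effects of injection and of seizures cannot be told apart.

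Tissue plasminogen activator (Plat) and urokinase (Plau) are serine proteases that cut plasminogen into plasmin, and the urokinase receptor (Plaur) holds urokinase at the cell surface. Mmp3 and Mmp9 are matrix metalloproteases, Timp1 is a secreted inhibitor of such enzymes, and Adamts1 cleaves the proteoglycans aggrecan and versican. Ccn1 and Ccn2 are matrix-associated signalling proteins that bind integrins. In the brain, these systems act on perineuronal nets, on growth factor precursors and on vessel walls.

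The libraries held 19100374 counts on genes in the control, 17744508 at 1 h, 18250114 and 19109204 in replicates 1 and 2 at 4 h, and 16612225 at 8 h. Levels are given as normalized CPM, which is the gene's counts divided by the TMM-scaled library total and expressed in CPM units. A level of 3 counts, the floor used here for a count of 0, equals 0.151 to 0.178 normalized CPM. Intervals are exact 95% intervals, Poisson for a level and binomial for a ratio, and they cover counting error only. The control and the 1 h and 8 h conditions had 1 library each, so their values have no replicate check.

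The activity genes Fos, Arc, Npas4 and Egr1 served as a check of the labels. Fos, an immediate early transcription factor gene, stood at 10.8 normalized CPM in the control, 999 at 1 h, 519 and 70.4 in replicates 1 and 2 at 4 h, and 17.2 at 8 h. Npas4, another such gene, stood at 3.92, 694, 130, 4.92 and 5.13 in the same order. The libraries at 4 h thus differed in activity genes, with Fos 7.38-fold and Npas4 26.4-fold higher in replicate 1 than in replicate 2. Arc was 13.7-fold above the control at 1 h, 17.6-fold and 6.29-fold above it in replicates 1 and 2, and 1.03 times the control at 8 h. Egr1 was 7.38-fold above the control at 1 h, 3.4-fold in replicate 1, 1.06 times the control in replicate 2 and 0.654 times at 8 h.

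The same library stood apart in tissue markers. The summed level of 5 choroid plexus genes was 3990 normalized CPM in the control, 1690 at 1 h, 29.2 in replicate 1 at 4 h, 4270 in replicate 2 and 3090 at 8 h. Ttr, the most abundant of these and the gene for transthyretin, stood at 16.3 normalized CPM in replicate 1 and at 3970 in replicate 2. Reads on no annotated gene made up 33.1% of the reads tallied in replicate 1 and 25.3% in replicate 2. Replicate 1 was less apart in this, as the 1 h and 8 h libraries had 29% and 30.9%, and the control 24.7%. In tissue as a whole, fewer cells of a type and less RNA per cell cannot be told apart. The part of choroid plexus content and of the activity gene levels in the differences between the 4 h libraries was not tested, so each 4 h value below is given for both.

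**Figure D1:**
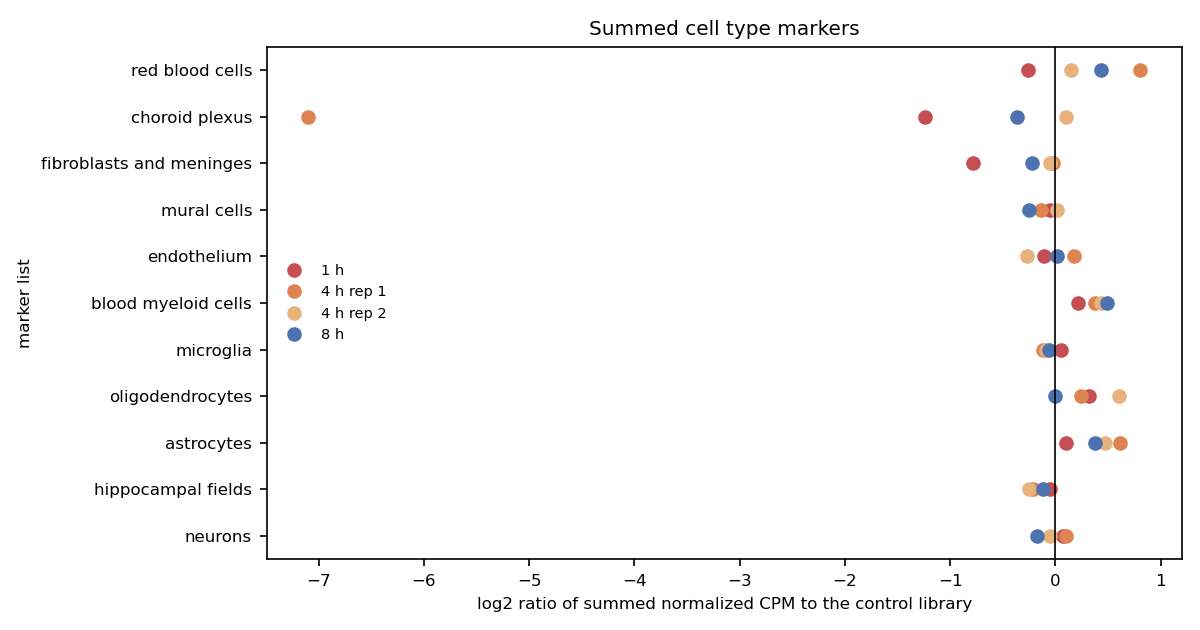
Summed normalized CPM of each cell type marker list, as the log2 ratio to the control library (x axis), with 1 point per library. The choroid plexus list lies far to the left in replicate 1 at 4 h, at 29.2 normalized CPM against 3990 in the control, while the other lists lie between 0.582 and 1.75 times the control.

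Promoters of 5 members are shown first, as the sequences before annotated starts. Counts per gene do not show which start was used. The promoter table used here, from RefSeq on GRCm38.p6, held 5 of the 9 members, and all 5 are shown. That Plat, Plau, Mmp9 and Ccn2 had no entry in it does not mean that they lack an annotated start. The 250 bases before the transcription start are printed 5′ to 3′ on the gene's own strand. Capitals mark matches, on either strand, to the AP-1 motif TGANTCA, the cAMP response element TGACGTCA, the TEAD motif GGAATG, the TATA box TATAAA, the CArG box and the NF-kB motif. The Ccn1 promoter lies at chr3:145649986-145650235 (minus strand), that of Adamts1 at chr16:85803114-85803363 (minus), that of Plaur at chr7:24462233-24462482 (plus), that of Timp1 at chrX:20869916-20870165 (plus) and that of Mmp3 at chr9:7445572-7445821 (plus).
Ccn1: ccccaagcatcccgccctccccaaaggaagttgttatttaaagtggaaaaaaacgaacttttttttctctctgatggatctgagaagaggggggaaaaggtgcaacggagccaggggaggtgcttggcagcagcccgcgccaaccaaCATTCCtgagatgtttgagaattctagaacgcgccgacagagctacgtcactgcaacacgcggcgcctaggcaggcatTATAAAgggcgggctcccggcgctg
Adamts1: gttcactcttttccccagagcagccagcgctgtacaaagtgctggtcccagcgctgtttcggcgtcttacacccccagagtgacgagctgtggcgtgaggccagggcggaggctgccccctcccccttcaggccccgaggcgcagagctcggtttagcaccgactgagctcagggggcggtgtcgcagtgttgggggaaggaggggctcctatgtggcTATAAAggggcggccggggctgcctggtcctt
Plaur: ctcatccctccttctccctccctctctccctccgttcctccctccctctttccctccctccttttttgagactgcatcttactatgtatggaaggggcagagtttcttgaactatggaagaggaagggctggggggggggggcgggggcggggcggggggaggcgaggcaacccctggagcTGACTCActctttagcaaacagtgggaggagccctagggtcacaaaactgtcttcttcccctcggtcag
Timp1: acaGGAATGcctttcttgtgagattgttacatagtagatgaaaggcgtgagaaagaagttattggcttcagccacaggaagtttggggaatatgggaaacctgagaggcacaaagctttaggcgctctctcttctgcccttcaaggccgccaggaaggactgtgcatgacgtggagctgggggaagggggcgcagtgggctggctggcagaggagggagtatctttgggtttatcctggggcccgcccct
Mmp3: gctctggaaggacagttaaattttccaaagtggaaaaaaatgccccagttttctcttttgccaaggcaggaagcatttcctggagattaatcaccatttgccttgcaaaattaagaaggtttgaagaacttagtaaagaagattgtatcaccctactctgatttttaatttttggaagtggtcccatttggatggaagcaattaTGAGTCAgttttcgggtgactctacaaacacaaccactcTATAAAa

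The AP-1 motif was present in the Plaur promoter, 69 to 63 bases before the start, and in that of Mmp3, 46 to 40 bases before it. Of all 32851 promoters cut to the same length, 6.75% held it. The TEAD motif was present in Ccn1, 103 to 98 bases before the start, and in Timp1, 247 to 242 bases before it, and 12.6% of all promoters held it. The letters of the TATA box were found in Ccn1, Adamts1 and Mmp3, against 12.4% of all promoters. They lay 25 to 20, 32 to 27 and 7 to 2 bases before the start, respectively. The cAMP response element (1.55% of all promoters), the CArG box (1.47%) and the NF-kB motif (3.9%) had no match in these 5 windows. A match is a description of the letters and not of a bound site.

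Ccn1 and Adamts1 had their highest levels at 1 h. Ccn1, on chromosome 3 from 145646976 to 145649981, stood at 1.81 normalized CPM in the control, 69.3 at 1 h, 35.6 and 5.18 in replicates 1 and 2 at 4 h, and 3.99 at 8 h. All 4 libraries from treated mice were above the control, and their counting intervals did not overlap that of the control. The ratio to the control was 38.3 at 1 h (95% interval 27.5 to 55), 19.7 and 2.87 in the 4 h libraries, and 2.21 at 8 h (1.46 to 3.4). Adamts1, on chromosome 16 from 85793827 to 85803113, stood at 29.5 normalized CPM in the control, 194 at 1 h, 91.8 and 31.4 in the 4 h pair, and 34.9 at 8 h. Its ratio to the control was 6.56 at 1 h (6 to 7.17) and 3.11 in replicate 1 at 4 h (2.82 to 3.42), but 1.06 in replicate 2 (0.947 to 1.19), an interval that includes 1. At 8 h the ratio was 1.18 (1.05 to 1.32).

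**Figure D2:**
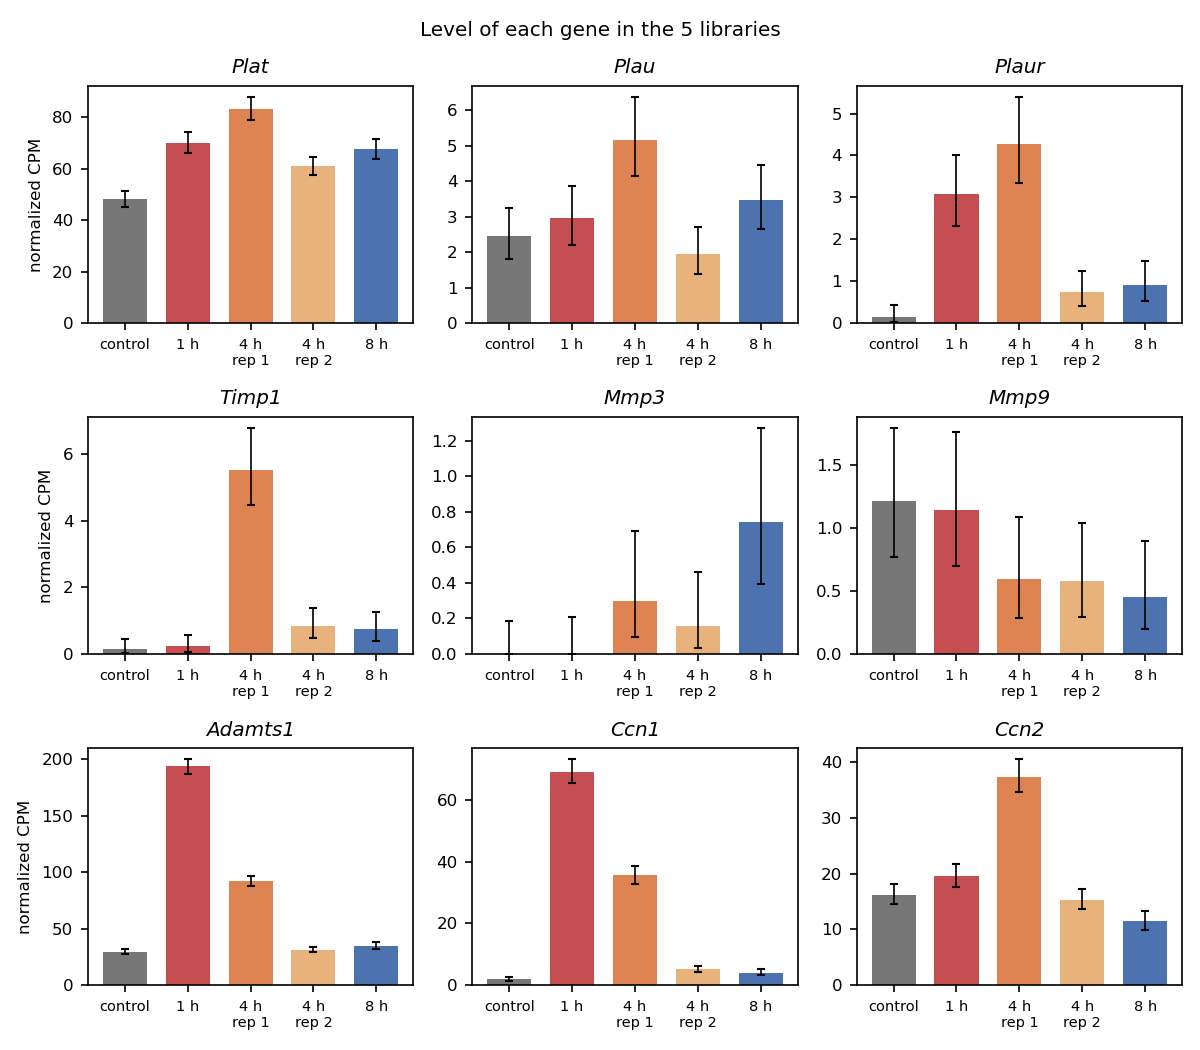
Normalized CPM (y axis, linear from 0, a scale of its own for each gene) of the 9 genes in each of the 5 libraries (x axis), with exact 95% Poisson intervals. Ccn1 and Adamts1 are highest at 1 h, at 69.3 and 194, whereas Timp1 is highest in replicate 1 at 4 h, at 5.52.

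Ccn2, on chromosome 10 from 24595442 to 24598683, had another time course than Ccn1. Its level was 16.2 normalized CPM in the control, 19.6 at 1 h, 37.4 and 15.3 in the 4 h pair, and 11.5 at 8 h. Only replicate 1 at 4 h was more than 2-fold above the control, with a ratio of 2.31 (2.01 to 2.64), while replicate 2 gave 0.942 (0.801 to 1.11). At 8 h the ratio was 0.707 (0.589 to 0.845). Of the exon length of Ccn2, 23.2% lies opposite exons of Gm15270, which had 4 to 9 counts in the libraries against 201 to 630 for Ccn2. Whether the counting used strand is not stated in the sources.

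Plaur, on chromosome 7 from 24462484 to 24475968, had 3 counts in the control, 54 at 1 h, 72 and 14 in the 4 h pair, and 16 at 8 h. In normalized CPM these are 0.151, 3.07, 4.28, 0.74 and 0.913 for the respective libraries. Relative to the control, Plaur was at 20.4 times the level at 1 h (6.61 to 102), 28.4 and 4.91 at 4 h, and 6.06 at 8 h (1.73 to 32.4), and the width of these intervals comes from the 3 control counts. Plat, on chromosome 8 from 22757727 to 22782844, stood at 48.1 normalized CPM in the control, 70 at 1 h, 83.3 and 60.9 in the 4 h pair, and 67.6 at 8 h. All 4 libraries were above the control, by 1.26-fold to 1.73-fold. Plau, on chromosome 14 from 20836660 to 20843385, stood at 2.46, 2.96, 5.17, 1.96 and 3.48 normalized CPM in the same order of libraries. Its replicates at 4 h lay on opposite sides of the control, at 2.1 times (1.46 to 3.04) and 0.795 times (0.504 to 1.24) its level.

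Timp1, on chromosome X from 20870166 to 20874735, was near the floor in the control and at 1 h, with 3 and 4 counts. It had 93 and 16 counts at 4 h and 13 counts at 8 h, or 5.52, 0.846 and 0.742 normalized CPM. Relative to the control, Timp1 was at 36.6 times the level in replicate 1 at 4 h (12.2 to 181), 5.61 in replicate 2 (1.61 to 30.1) and 4.92 at 8 h (1.35 to 26.9). At 1 h no difference from the control was detectable at this depth (1.51, 0.255 to 10.3). Mmp3, on chromosome 9 from 7445822 to 7455975, was at 0 counts in both the control and the 1 h library, at 5 and 3 counts in the 4 h libraries, and at 13 counts at 8 h. With its 0 in the control replaced by the floor, Mmp3 was at least 4.92-fold higher at 8 h, before the counting error of the 13 counts, and the exact interval of the ratio began at 3.46. Mmp9, on chromosome 2 from 164940780 to 164955850, had 24 counts in the control, 20 at 1 h, 10 and 11 in the 4 h pair, and 8 at 8 h. It was the member with a level below the control in all 4 libraries, with a ratio of 0.944 at 1 h (0.494 to 1.78) and 0.378 at 8 h (0.147 to 0.871). Both 4 h intervals included 1 (0.21 to 1.07 and 0.213 to 1.02).

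**Figure D3:**
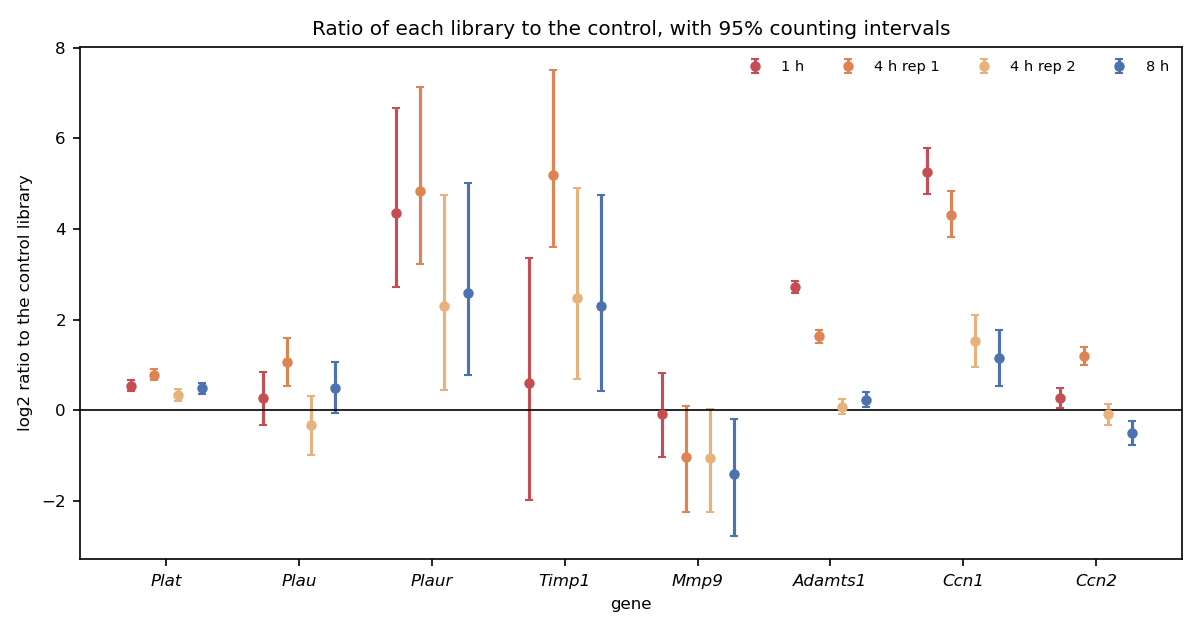
Log2 ratio of each library from treated mice to the control (y axis) for 8 genes (x axis), with exact 95% binomial counting intervals. Mmp3 is left out since its control count was 0. Plat, Plaur, Timp1, Adamts1 and Ccn1 lie above 0 in all 4 libraries and Mmp9 below 0 in all 4, although the intervals of Timp1 at 1 h, Adamts1 in replicate 2 and Mmp9 at 1 h and 4 h include 0.

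Compared per kilobase of exon, Plat was the most abundant member in the control, at 7.71 normalized CPM per kb, followed by Ccn2 at 5.67 and Adamts1 at 5.57. The others lay at or under 1.04 (Plau). At 1 h Adamts1 (36.5 per kb) and Ccn1 (34.3) came first, ahead of Plat at 11.2. In replicate 1 at 4 h Ccn1 (17.6) and Adamts1 (17.3) were nearly level, and Plat (13.3) and Ccn2 (13.1) followed. In replicate 2 the order was again led by Plat (9.75), with Adamts1 at 5.92 and Ccn2 at 5.34, and at 8 h by Plat (10.8) and Adamts1 (6.57).

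By counts of members, 3 of 9 were at least 2-fold above the control at 1 h (Plaur, Adamts1 and Ccn1), against 4.95% of the 19768 genes that passed the filter on low counts. At 4 h, 3 members were so in both libraries (Plaur, Timp1 and Ccn1), against 4.54% of genes, and with replicate 1 alone 6 members were (Plau, Plaur, Timp1, Adamts1, Ccn1 and Ccn2), against 11.7% of genes. With replicate 2 alone the same 3 as in both libraries were, against 6.24%. At 8 h, 4 were (Plaur, Timp1, Mmp3 and Ccn1), against 6.46%. In the other direction, 0 members were at least 2-fold below the control at 1 h (3.39% of genes), and Mmp9 was at 4 h (1.48%) and at 8 h (3.18%). Plaur, Timp1 and Mmp3 passed the filter only through libraries from treated mice, so they had to differ from the control, and the counts of members are not read as support.

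The quasi-likelihood test of edgeR, adjusted over 19768 genes, called 0 members against the control at 1 h, where it called 0% of all genes. It called 0 members at 4 h (0.00506% of genes) and 0 at 8 h (0%). The only replicated condition was 4 h, which left 1 residual degree of freedom, so the spread used at every time came from that pair. Nor did the test call Fos, Arc, Npas4 or Egr1 against the control at any time, though Fos was 92.5-fold above it at 1 h. The lack of calls is thus not read as a lack of change. At an unadjusted p under 0.05, edgeR singled out 3 members at 1 h (Plaur, Adamts1 and Ccn1), with 2.42% of all genes, 3 at 4 h (Plaur, Timp1 and Ccn1), with 11.6%, and 1 at 8 h (Mmp3), with 4.51%. For Plaur, Timp1 and Mmp3 the filter had already selected high levels in libraries from treated mice, and at 1 h and 8 h 1 library stood against 1, so these counts are not read as support either. DESeq2 and limma-voom called 0 members at each time, while over all genes DESeq2 called 56, 238 and 33 and limma-voom 0. DESeq2 gave no adjusted p for Plaur, Timp1, Mmp3 and Mmp9 at any time, nor for Plau at 1 h, so it could not call these. In the edgeR fit, Ccn1 had a log2 fold change of 5.18 (SE 1.39, adjusted p = 1) at 1 h and 3.41 (SE 1.25, adjusted p = 0.402) at 4 h. For Adamts1, edgeR gave 2.71 (SE 0.72, adjusted p = 1) at 1 h, and for Timp1 3.65 (SE 1.54, adjusted p = 0.398) at 4 h. Between time points, edgeR called 0 members at 4 h against 1 h (0.00506% of genes) and 0 at 8 h against 4 h (0%). At 4 h against 1 h the estimates were a log2 fold change of -1.65 (SE 0.56) for Adamts1 and 3.28 (SE 1.47) for Timp1, with edgeR adjusted p of 0.571 and 0.619.

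The difference between the 4 h libraries was large for most of these genes. Ccn1 was 6.88-fold higher in replicate 1 than in replicate 2 (5.55 to 8.6), Timp1 6.53-fold (3.82 to 11.9) and Plaur 5.78-fold (3.23 to 11.1). Adamts1, Plau and Ccn2 were 2.92-fold, 2.64-fold and 2.45-fold higher. In all, 6 of 9 members were at least 2-fold higher in replicate 1, against 7.03% of genes. Over all genes tested, the SD of the log2 ratio between these libraries was 0.52. Plat was 1.37-fold higher in replicate 1 (1.26 to 1.48). Mmp3, at 5 and 3 counts, had a ratio of 1.87 (0.364 to 12.1). Mmp9 had 10 and 11 counts, a ratio of 1.02 (0.389 to 2.65).

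**Figure D4:**
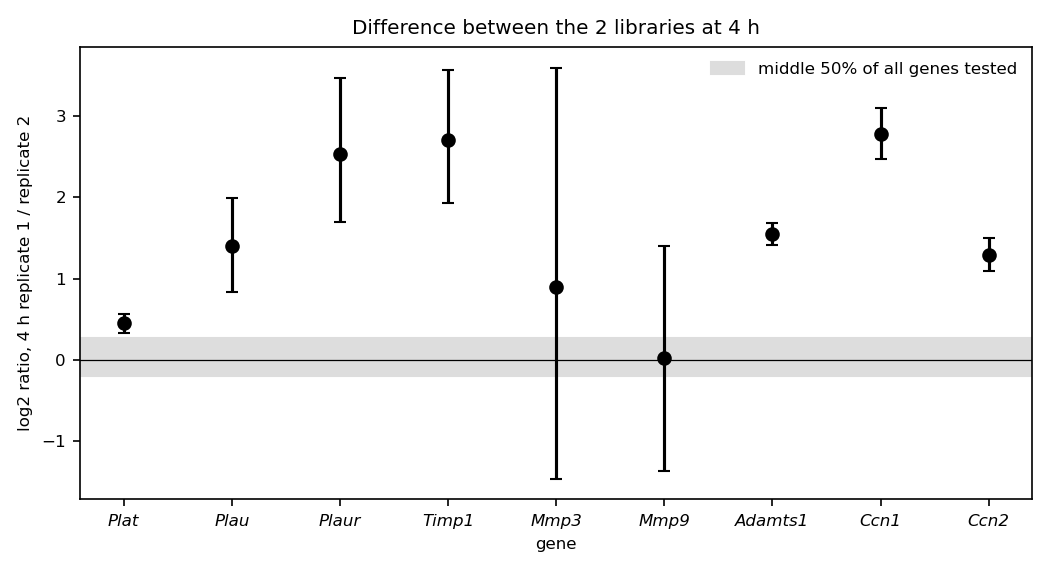
Log2 ratio of replicate 1 to replicate 2 at 4 h (y axis) for each gene (x axis), with exact 95% binomial counting intervals, and the middle 50% of all genes tested as a grey band from -0.20 to 0.27. Ccn1, Timp1 and Plaur lie highest, at 6.88-fold, 6.53-fold and 5.78-fold.

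Among the other genes of the plasminogen system, 18 of 20 passed the filter, and Plg (plasminogen itself) and Mst1 did not. Among those at least 2-fold above the control at 4 h and at 8 h were Serpinf2, Serpina3n, Anxa2 and S100a10, against 4.54% and 6.46% of all genes. The list's median log2 fold change was 0.14, 0.55 and 0.40 at 1, 4 and 8 h, beside -0.01, 0.01 and 0.01 over all genes tested. With Serpinb2, which was at 0 in the control, set to its bound against the floor, the 8 h median was 0.32. Serpina3n, a serine protease inhibitor gene of reactive astrocytes, was 1.04 times the control at 1 h, 2.88 and 2.26 times at 4 h, and 2.89 times at 8 h. Anxa2, whose product binds plasminogen and its activator, was 1.1 times the control at 1 h and 2.71 to 3.97 times later. Serpinf2, the gene for alpha-2-antiplasmin, was 6.21 and 3.07 times the control at 4 h and 5.49 times at 8 h. Serpini1, which encodes neuroserpin, was the most abundant of the list per kilobase, though not in every library. It stood at 34.5 normalized CPM per kb in the control, 39.4 at 1 h, 40 and 29.6 in the 4 h pair, and 26.8 at 8 h. Serpina3n was above it in replicate 2 at 4 h (31.1) and at 8 h (39.7).

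Of the other matrix metalloproteases, 10 of 19 passed the filter, and Mmp7, Mmp10, Mmp20 and Mmp27 had 0 counts in all 5 libraries. At least 2-fold above the control were 0 at 1 h, Mmp19 at 4 h, and Mmp11 and Mmp19 at 8 h, against 4.95%, 4.54% and 6.46% of all genes. Mmp19 rested on 18 counts in the control and 37 to 45 at these times, and Mmp11 on 11 and 40. The median log2 fold change was -0.23, -0.27 and 0.27. Mmp17, the most abundant per kilobase, stood at 22.6 normalized CPM per kb in the control and at 14.1 and 17.6 at 4 h. Mmp15 was 0.606 times the control at 8 h (0.494 to 0.742), and Mmp14 was 0.705 times at 1 h and 1.45 times at 8 h. Mmp2 was 0.345 times the control in replicate 1 at 4 h and 1.07 times in replicate 2.

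All 7 genes of a list of 5 other metalloprotease inhibitors and 2 procollagen C-proteinase enhancers (Pcolce and Pcolce2) passed, with medians of -0.39, -0.01 and 0.01. A2m, the gene for the broad protease inhibitor alpha-2-macroglobulin, was 0.758 times the control at 1 h, 2.8 and 2.44 times at 4 h, and 2.98 times at 8 h (2.55 to 3.49), the 1 gene of the list at least 2-fold above at 4 h and at 8 h (4.54% and 6.46% of all genes). Timp2, the most abundant inhibitor per kilobase, stood at 33.7 normalized CPM per kb in the control and 18.7 at 8 h, a ratio of 0.556 (0.52 to 0.595). Timp3 was 1.06 to 1.33 times the control. Pcolce was 0.34 times the control in replicate 1 at 4 h and 0.965 times in replicate 2.

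Of 18 other ADAMTS genes, 17 passed. Of these, 0 were at least 2-fold above the control at 1 h, in both 4 h libraries or at 8 h. The shares over all genes were 4.95%, 4.54% and 6.46%. Adamts12 and Adamts14 at 1 h, Adamts10, Adamts14 and Adamts17 at 4 h, and Adamts13 at 8 h were at least 2-fold below, against 3.39%, 1.48% and 3.18% of all genes, and the medians were -0.27, 0.03 and -0.12. Adamts12 rested on 25 counts in the control and 10 at 1 h, Adamts13 on 17 and 7 at 8 h, and Adamts14 on 42 in the control and 10 to 15 at 1 h and 4 h. Adamts9 was 1.67 times the control at 1 h, 3.71 and 1.43 times at 4 h, and 0.819 times at 8 h. Adamts17 was 0.367 and 0.48 times the control at 4 h, and Adamts10 0.467 and 0.478 times. Adamts19 was 9.1 times the control in replicate 1 (4.69 to 19.7) and 1.89 times in replicate 2 (0.829 to 4.59). Adamts4, the most abundant of the list per kilobase, was 1.26 to 1.44 times the control.

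In the CCN family, 3 of 4 other members passed (Ccn3, Ccn4 and Ccn5). Ccn4 stood at 0.754 normalized CPM in the control, 1.14 at 1 h, 2.97 and 3.49 in the 4 h pair, and 9.07 at 8 h. Its ratio to the control was 12 at 8 h (7.08 to 22). Ccn3, the most abundant of these per kilobase, was 0.864 times the control at 1 h, 0.661 and 0.784 times at 4 h, and 0.426 times at 8 h (0.394 to 0.46). Ccn5 had 4 counts in the control and at 1 h, 9 in each 4 h library and 13 at 8 h.

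Among 22 matrix substrates, all of which passed, the medians were 0.03, 0.20 and -0.05. Acan, the gene for aggrecan, stood at 5.28 normalized CPM in the control, 7.45 at 1 h, 123 and 34 in the 4 h pair, and 7.3 at 8 h. Its ratio to the control was 23.2 (19.1 to 28.6) and 6.45 (5.24 to 8) at 4 h. Thbs1, which encodes thrombospondin 1, was 6.58 times the control at 1 h, 9.95 and 1.82 times at 4 h, and 1.01 times at 8 h. Spp1 (osteopontin) was 2.53 and 3.68 times the control at 4 h and 2.6 times at 8 h. Cspg5 was 0.56 times the control at 8 h. Sparcl1, the most abundant substrate gene per kilobase, was 0.972 to 1.18 times the control. In these 6 lists the quasi-likelihood test of edgeR called 0 genes in either direction against the control, as it called 0, 1 and 0 of all genes at 1, 4 and 8 h.

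The genes nearest to each member were sought by the Euclidean distance over 4 log2 ratios to the control, with 0.5 added to each normalized CPM, among 14325 genes with at least 50 counts in a library (14326 for Mmp3 and Mmp9). For Ccn1 they were Gadd45g (distance 0.935), Gem (1.2) and 1700016P03Rik (1.34), and 1 gene lay within a distance of 1. For Adamts1 they were Ppp1r15a (0.412), Arid5a (0.516) and Gm47693 (0.541), with 31 genes within 1. Plaur was nearest to Kif18a (0.71), Gm38357 (0.767) and Gm48958 (0.814), and Timp1 to Tgm1 (0.533), Gm47665 (0.539) and Lyzl4 (0.737). Members with small ratios had many near genes, with 4058 within 1 for Plat (nearest Gm5511, Gm43789 and P4ha1) and 3363 for Plau (Gm20712, 2900022M07Rik and Slc35d1). The same held for Ccn2, with 1369 (Zfp184, Vps13a and Ralgapa2). For Mmp9 (3930 genes within 1, nearest Syt3, Mapk3 and Lrrc24) and Mmp3 (593, nearest Adgrl3, Rhbdf1 and Gm42822), as for Plaur and Timp1, the low counts let the added 0.5 shrink the ratios, so the distances rest in part on it. The ratios share the control library, so a distance over them describes these libraries only.

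The sums of the other marker lists lay nearer to the control than that of the choroid plexus at 1 h and in replicate 1 at 4 h, but not all of them in replicate 2, where choroid plexus markers were 1.07 times the control, or at 8 h, where they were 0.774 times. The summed level of 5 astrocyte markers was 1120 normalized CPM in the control, 1190 at 1 h, 1710 and 1560 in the 4 h pair, and 1450 at 8 h. Slc1a3 was the most abundant except at 8 h, where it stood at 579, just below Gfap. Gfap stood at 221 normalized CPM in the control and 587 at 8 h, whereas Gja1 was 0.507 times and Aqp4 0.965 times the control at 8 h. Summed endothelial markers were 0.831 to 1.13 times the control, but single genes lay apart. Flt1 was the most abundant in each library from treated mice. In the control it stood at 40.1 normalized CPM, below Slco1a4 at 48.6. In replicate 1 at 4 h, Cdh5 was at 3.4 times, Flt1 and Pecam1 at 1.75 times and Slco1a4 at 0.247 times the control, and at 8 h Pecam1 was at 2 times. Mural cell markers were 0.841 to 1.01 times the control (Rgs5). Microglial markers were 0.92 to 1.04 times, with P2ry12 at 0.436 and 0.558 times at 4 h. Markers of fibroblasts and meninges were 0.582 times the control at 1 h and 0.856 to 0.986 times later (Dcn), while Col3a1 was 3.38 and 2.27 times the control at 4 h and 2.88 times at 8 h. Blood myeloid markers summed to 6.73 normalized CPM in the control and 9.41 at 8 h (Lyz2). Plac8 was at 0 at 1 h, in replicate 1 at 4 h and at 8 h, but had only 1 count in the control and 1 in replicate 2. Red blood cell markers were 1.75 times the control in replicate 1 at 4 h and 1.11 times in replicate 2 (Hbb-bs). Neuronal markers were 0.888 to 1.07 times the control (Snap25). Within them Gad1 was 2.01 and 1.48 times and Gad2 1.47 and 1.52 times the control at 4 h, against 0.688 and 0.692 times for Rbfox3. Oligodendrocyte markers were 1 to 1.52 times the control (Mbp). Markers of hippocampal fields were 0.843 to 0.968 times the control. Neurod6 stood at 144 normalized CPM in the control, where it was the most abundant, and at 60.9 and 67.1 at 4 h. In the 4 h pair the most abundant was Prox1, at 172 and 120. Prox1 was 2.86 and 1.99 times the control at 4 h, and C1ql2 was 0.376 and 0.398 times at 4 h and 1.98 times at 8 h. The part of these cell types in the levels of the 9 genes was not tested.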

How the data were processed

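Total RNA was sequenced from 5 hippocampal libraries prepared with a stranded kit. Per the submitters' processing notes, the authors aligned reads with STAR 2.5.1b to GRCm38.p4 and used HTSeq, for which the sources state neither version nor strand setting. The authors deposited whole-number read counts per gene, without normalization. The summary lines that name no gene were left out: reads on no gene were 24.7% to 33.1% of the tally, ambiguous reads 1.26% to 1.52%, and reads aligned to several places 9.67% to 11.6%.

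Counts were scaled by TMM, filtered by filterByExpr and fitted with edgeR 4.0.16 (R 4.3.3) over 4 conditions, and p-values were adjusted by Benjamini-Hochberg over 19768 genes (threshold 0.05, prior count 2). The biological coefficient of variation was 0.238. The test was tried on simulated counts. A ratio at least 2-fold used a control count of at least 3. Coordinates and exon lengths came from GENCODE M21. DESeq2 1.42.0, limma 3.58.1, other scalings, filters, assumed dispersions, a prior count of 0.125, a 1.5-fold threshold and single 4 h libraries were alternatives. Intervals used scipy 1.17.1. Named were all 9 members; up to 4 genes per pathway list with at least 50 counts and the largest log2 ratio to the control at any time, up or down (0.5 added to normalized CPM; the mean of the 4 h pair, if both had the same sign), plus the most abundant per exon length; for markers the most abundant and those at 0; and the 3 nearest genes per member. Genes outside this rule were named to account for small counts or for some of the markers that differ from their list's sum, after their values were seen. Results for 2 of the listed genes are not reported here. Members and lists were chosen with earlier results of these data known.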

Additional observations from a re-analysis of the deposited data

Results flagged for a closer look

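Ccn2 was flagged because its libraries lay on opposite sides of the control at different times. Its ratio to the control was 1.21 at 1 h (95% counting interval 1.03 to 1.41) and 0.707 at 8 h (0.589 to 0.845). The 1 h library stood at 1.71 times the 8 h library (1.43 to 2.04), with counting error alone in the interval. Each of these times had 1 library, and the difference between them was not tested.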

How the results depend on the processing

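No member was called by edgeR at any time with median-of-ratios size factors, with library size alone or when at least 10 counts were required in every library (which left 5 members), nor by limma-voom, although library size alone raised the calls over all genes to 57, 237 and 22 at 1, 4 and 8 h. DESeq2 called none of the members to which it gave an adjusted p, which left out Plaur, Timp1, Mmp3 and Mmp9, and Plau at 1 h. Calls appeared when the dispersion was assumed and not estimated. These fits also used a likelihood-ratio test in place of the quasi-likelihood F test, so the 2 changes cannot be told apart. With a biological coefficient of variation of 0.2, 3 members were called at 1 h (Adamts1, Ccn1 and Plaur), 3 at 4 h (Ccn1, Plaur and Timp1), 1 at 8 h (Mmp3), 3 at 4 h against 1 h and 2 at 8 h against 4 h, beside 238, 916, 184, 513 and 660 of 19768 genes. With 0.4, 1 was called at 1 h (Ccn1), 3 at 4 h and 0 at 8 h, beside 40, 81 and 12 genes. With no filter on low counts, edgeR called 3 members at 1 h, 4 at 4 h, 0 at 8 h, 3 at 4 h against 1 h and 4 at 8 h against 4 h, beside 285, 1300, 279, 725 and 957 of 32732 genes. The cause was not tested. The alternatives for the comparisons between time points were chosen after seeing the data.

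Members at least 2-fold above the control at 4 h numbered 3 without replicate 1 and 6 without replicate 2, beside 6.24% and 11.7% of all genes. Without replicate 1, the log2 fold change at 4 h was 1.46 for Ccn1, 1.88 for Timp1, 1.71 for Plaur and 0.09 for Adamts1, and it was below 0 for Plau (-0.32) and Ccn2 (-0.09). Of 249 values of single members under the alternatives, 18 passed the threshold. When a 4 h library was left out, 7 moved by more than 1 SD of the pair, taken on log2(normalized CPM + 0.5), among them Mmp9, whose pair was close, at -0.93 and -0.90 against -0.92. The other alternatives were judged by direction and side of the threshold only, with a missing adjusted p taken as not passing, and not by size. The size for Mmp3 depended on the method, with a log2 fold change of 1.56 to 5.07 at 4 h and 2.95 to 6.76 at 8 h. Plaur ran from 3.56 to 4.35 at 1 h, and Timp1 from 3.52 to 4.41 at 4 h. With library size alone, the median log2 ratio of all genes in replicate 1 at 4 h was -0.16, and with TMM it was -0.01. Depth limits Plaur, Timp1, Mmp3 and Mmp9 most, with 0 to 24 counts in the control. No paired analysis was possible because the control, 1 h and 8 h conditions had 1 library each.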
